A study of Mus musculus with 15 samples.

Results

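Cyclic GMP is a second messenger that relaxes smooth muscle and pericytes, the contractile cells around blood vessels. Nitric oxide activates soluble guanylate cyclase, a heterodimer of an alpha and a beta subunit, which makes cyclic GMP from GTP. Cyclic GMP then activates the cGMP-dependent protein kinases, and phosphodiesterases break it down. A separate family of receptors at the cell membrane, the natriuretic peptide receptors, makes cyclic GMP in response to peptide hormones.

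The genes described here are 8 cGMP signalling enzymes out of 18718 genes measured. They are the cyclase subunits Gucy1a1, Gucy1a2 and Gucy1b1, the kinases Prkg1 and Prkg2, and the phosphodiesterases Pde5a, Pde3a and Pde1a. They were taken by gene symbol from rows of the deposited table whose array annotation gives 1 symbol, and all 8 were found, on 9 rows. The set was selected on measured values, since it was put together with the signals of these genes across the 5 groups already known, the number of its genes that differ is therefore a description of the set and not independent evidence. Only Prkg2 had more than 1 row. The row with the higher mean over the 15 arrays was kept (4.47, against 4.31 for the row left out).

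The cells were mesenchymal cells of C57BL/6 mice aged 2 weeks, sorted as PDGFRβ-positive from digested lymph node or thymus. Lymph nodes, which were pooled inguinal, brachial and axillary nodes, gave 3 groups: PDPN+BP3+, PDPN+BP3- and PDPN- cells. Thymus gave PDPN+BP3- and PDPN- cells. BP3 is encoded by Bst1 and PDPN, or podoplanin, by Pdpn. Ly51, encoded by Enpep, was a further selection marker for the PDPN- cells of both organs. In comparisons with PDPN- cells, podoplanin and Ly51 therefore cannot be told apart. Each group had 3 arrays from 3 individual experiments, so n = 3 throughout and 15 arrays in all. Lymph node samples pooled 10 to 11 mice and thymus samples 3 mice. Pool size and organ cannot be told apart.

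Values are log2 RMA signals, in which 1 unit is a doubling of signal, and their median over the table was 3.8. Array medians ran from 3.58, on thymus PDPN+BP3- replicate 1, to 3.885. The sort antigens followed the gates. Pdpn averaged 8.79, 8.16 and 3.41 in lymph node PDPN+BP3+, PDPN+BP3- and PDPN- cells, and 9.11 and 3.01 in thymus PDPN+BP3- and PDPN- cells, while Pdgfrb was at 8.94 or more in all 5. Pericyte and smooth muscle markers (13 genes) averaged 7.01 to 7.05 on lymph node PDPN+BP3+ and 6.34 to 6.68 on lymph node PDPN+BP3- arrays, against 8.89 to 9.01 on lymph node PDPN- arrays. They averaged 5.74 to 5.88 on thymus PDPN+BP3- arrays, against 9.10 to 9.29 on thymus PDPN- arrays, and all 13 were above the table median in the PDPN- cells of both organs. Fibroblast markers (7 genes) stood at 6.74 to 6.97 on lymph node PDPN+BP3+ and 9.26 to 9.50 on lymph node PDPN+BP3- arrays, against 6.21 to 6.35 on lymph node PDPN- arrays. They stood at 9.88 to 10.08 on thymus PDPN+BP3- arrays, against 4.33 to 4.76 on thymus PDPN- arrays. Markers of B cells lay below the table median in every group.

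The 3 subunits of soluble guanylate cyclase were highest in PDPN- cells of both organs. Gucy1a1 encodes the alpha-1 subunit, the common partner of beta-1 in vascular smooth muscle. Its signal in lymph node was 8.80, 9.02 and 8.92 in PDPN+BP3+ cells and 8.49, 8.98 and 8.68 in PDPN+BP3- cells, against 9.94, 9.56 and 9.60 in PDPN- cells. In thymus it was 6.06, 6.11 and 6.17 in PDPN+BP3- cells, against 10.10, 9.97 and 9.82 in PDPN- cells. The thymus PDPN+BP3- arrays stood below all others, and the podoplanin-positive arrays of the lymph node lay in between, overlapping each other but no PDPN- array.

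Gucy1a2 encodes the alpha-2 subunit, an alternative partner of beta-1. In lymph node it stood at 8.02, 7.86 and 7.67 in PDPN+BP3+ cells and at 7.25, 7.20 and 7.20 in PDPN+BP3- cells, against 8.90, 8.42 and 8.50 in PDPN- cells. In thymus it stood at 6.45, 6.85 and 6.62 in PDPN+BP3- cells, against 9.31, 9.06 and 9.13 in PDPN- cells. No 2 groups overlapped for this gene, and their order was thymus PDPN-, lymph node PDPN-, lymph node PDPN+BP3+, lymph node PDPN+BP3- and thymus PDPN+BP3-. Gucy1b1 encodes beta-1, the subunit that carries the heme to which nitric oxide binds. It measured 6.78, 6.50 and 6.54 in lymph node PDPN+BP3+ cells and 6.08, 6.44 and 6.82 in PDPN+BP3- cells of lymph node, against 8.76, 8.85 and 9.07 in lymph node PDPN- cells. In thymus PDPN+BP3- cells it measured 5.15, 5.61 and 6.16, against 9.22, 9.05 and 8.95 in thymus PDPN- cells. The 3 podoplanin-positive groups formed a low block in which neighbouring groups overlapped, and the PDPN- groups of the organs overlapped at the top.

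**Figure D1:**
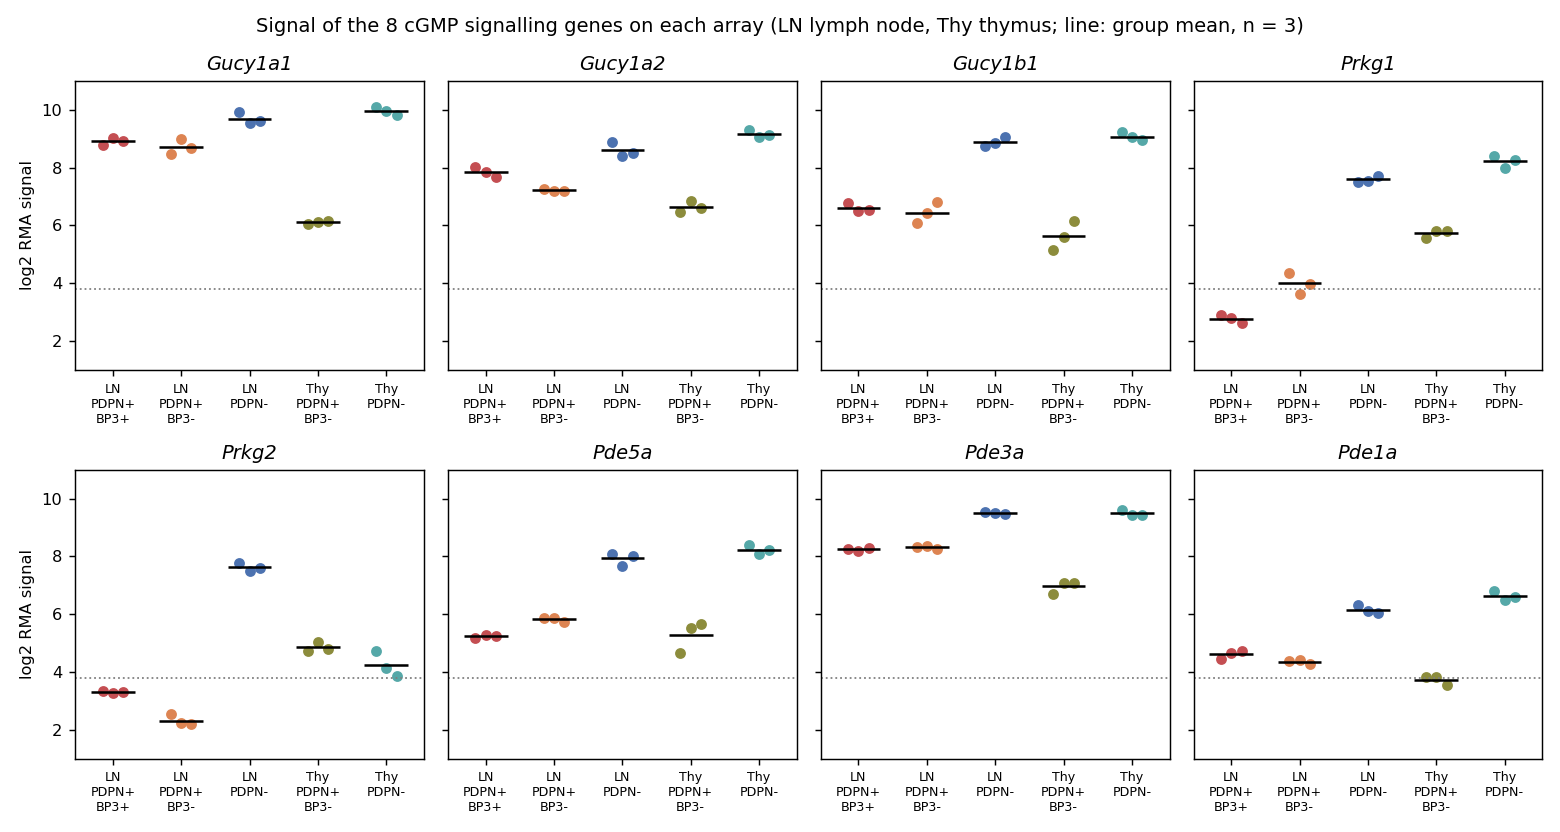
Signal of each of the 8 genes (log2 RMA units, vertical axis) on all 15 arrays, by sorted group (horizontal axis). Points are replicates 1 to 3 from left to right, the black line is the group mean and the dotted line is the table median of 3.8. The PDPN- groups are highest for every gene except Prkg2, which is high in lymph node PDPN- cells alone.

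In thymus, 7 of the 8 genes were lower in PDPN+BP3- than in PDPN- cells and 1 was higher, at an adjusted p under 0.05 in a limma fit over all genes. Of all genes, 18.2% were lower and 10.3% higher. After cyclic loess normalization again 7 of the 8 were lower and 1 higher, while the split over all genes turned to 2211 lower and 2698 higher, against 3415 and 1922. Without thymus PDPN+BP3- replicate 1, the array with the lowest median, 7 of the 8 were lower and 1 higher too. Over all genes 2343 were then lower and 2120 higher. The shares of 18.2% and 10.3% therefore depend on that array and on the normalization. All 3 cyclase subunits were among the 7 lower genes. The difference was -3.85 ± 0.14 for Gucy1a1 (log2 difference ± standard error of the limma fit, n = 3 arrays per group here and below, adjusted p 2.52e-12). It was -3.43 ± 0.22 for Gucy1b1 (limma adjusted p 2.24e-09) and -2.53 ± 0.14 for Gucy1a2 (limma adjusted p 5.68e-10). Because these are sorted bulk samples, fewer cells with a transcript and less of it per cell cannot be told apart.

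In lymph node, all 8 genes were lower in PDPN+BP3- than in PDPN- cells, against 9.79% of all genes, and 0 were higher, against 13.4%. Likewise all 8 were lower in PDPN+BP3+ than in PDPN- cells, against 11.2% of all genes, and 0 were higher, against 16.1%. These comparisons share the 3 PDPN- arrays. Gucy1b1 differed by -2.45 ± 0.22 in PDPN+BP3- and by -2.29 ± 0.22 in PDPN+BP3+ cells (limma adjusted p 2.11e-07 and 4.26e-07). The alpha subunit Gucy1a1 differed by -0.98 ± 0.14 in PDPN+BP3- and by -0.79 ± 0.14 in PDPN+BP3+ cells, and Gucy1a2 by -1.39 ± 0.14 and -0.76 ± 0.14. The 4 adjusted p-values of the alpha subunits ran from 1.21e-06 to 6.23e-04 in limma. The median difference of the 8 genes was -2.71 in thymus PDPN+BP3-, -1.96 in lymph node PDPN+BP3- and -1.92 in lymph node PDPN+BP3+ cells. The median over all genes was -0.05, -0.01 and 0.

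**Figure D2:**
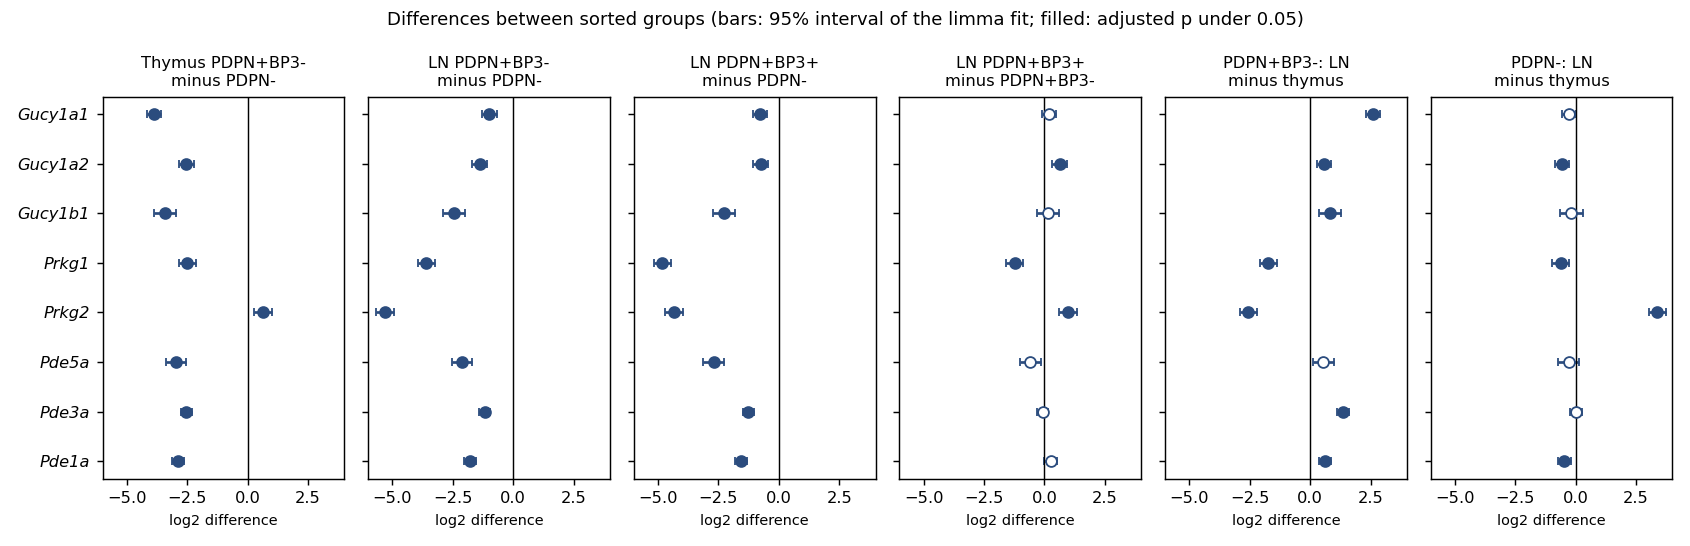
Log2 difference in signal (horizontal axis) of each gene in 6 comparisons of sorted groups, with the 95% interval of the limma fit. Filled points passed an adjusted p of 0.05 over all genes. Differences from PDPN- cells lie left of 0 in all cases but Prkg2 in thymus, while the organ comparisons split, with Prkg1 and Prkg2 opposite in sign to the cyclase subunits in PDPN+BP3- cells.

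The stretches just before the transcription starts of Gucy1a2, Gucy1b1 and Pde5a are shown because these genes were lower together in every podoplanin-positive group, and because the 250 bases lie outside the transcribed gene. The sequences are from RefSeq on build GRCm38.p6, read 5′ to 3′ on the gene's strand, with matches to the GC box GGGCGG and to TGGGAA, the core site of the Notch effector RBPJ, in capitals.
Gucy1a2, chr9:3532099-3532348, plus strand: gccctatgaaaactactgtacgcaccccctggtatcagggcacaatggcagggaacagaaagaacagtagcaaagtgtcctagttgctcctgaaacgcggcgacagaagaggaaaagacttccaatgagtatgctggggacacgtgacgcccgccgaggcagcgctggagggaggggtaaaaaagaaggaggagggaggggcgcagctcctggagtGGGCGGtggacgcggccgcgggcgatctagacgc
Gucy1b1, chr3:82074712-82074961, minus strand: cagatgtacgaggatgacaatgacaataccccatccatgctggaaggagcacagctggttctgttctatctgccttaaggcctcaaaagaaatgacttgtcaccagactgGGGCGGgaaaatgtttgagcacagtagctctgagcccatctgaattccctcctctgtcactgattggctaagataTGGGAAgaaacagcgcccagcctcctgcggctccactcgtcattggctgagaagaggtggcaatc
Pde5a, chr3:122728908-122729157, plus strand: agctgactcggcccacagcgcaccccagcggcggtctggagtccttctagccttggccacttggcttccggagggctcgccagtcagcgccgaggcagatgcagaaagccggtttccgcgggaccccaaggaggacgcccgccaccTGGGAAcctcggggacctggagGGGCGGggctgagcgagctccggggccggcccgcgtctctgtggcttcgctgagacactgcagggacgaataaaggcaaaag

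RefSeq promoter entries were matched for 6 of the 8 genes, with 11 start sites in all, and both strands were searched. Each of the 3 windows above holds 1 GC box, a match found in 32.7% of all 32817 mouse promoter windows of the same length. TGGGAA occurs once in the Gucy1b1 and Pde5a windows and in 21.6% of all windows. The GC box and TGGGAA matches do not overlap each other in these windows. The CArG box, the site of serum response factor in smooth muscle promoters, had 0 matches in the 11 windows and occurs in 1.47% of all windows. The cAMP response element TGACGTCA had 0 matches as well and occurs in 1.55%. Such a match is a string of letters, and no binding was measured.

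The 2 cGMP-dependent kinases had patterns of their own. Prkg1 encodes the soluble kinase of smooth muscle and platelets, which lowers cytosolic calcium and promotes relaxation. In lymph node it measured 2.91, 2.79 and 2.61 in PDPN+BP3+ cells and 4.37, 3.62 and 3.99 in PDPN+BP3- cells, against 7.5, 7.55 and 7.73 in PDPN- cells. In thymus it measured 5.55, 5.81 and 5.82 in PDPN+BP3- cells, against 8.39, 8.0 and 8.28 in PDPN- cells. No 2 groups overlapped, and the order was thymus PDPN-, lymph node PDPN-, thymus PDPN+BP3-, lymph node PDPN+BP3- and lymph node PDPN+BP3+. The last of these had a mean of 2.77, below the table median of 3.8, where a signal need not stand above background.

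Prkg1 was lower in podoplanin-positive cells by -2.50 ± 0.17 in thymus (limma adjusted p 4.68e-09). In lymph node the differences from PDPN- cells were -3.60 ± 0.17 for PDPN+BP3- and -4.82 ± 0.17 for PDPN+BP3+ cells (limma adjusted p 8.01e-11 and 1.97e-12). Over the 5 groups its means spanned 5.45 units, a wider span than that of 99.5% of genes.

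Prkg2 encodes the membrane-bound kinase, known for its roles in intestinal secretion and in the growth plate of bone. It measured 3.33, 3.26 and 3.31 in lymph node PDPN+BP3+ cells and 2.53, 2.23 and 2.19 in PDPN+BP3- cells of lymph node, against 7.77, 7.48 and 7.61 in lymph node PDPN- cells. In thymus it measured 4.74, 5.05 and 4.81 in PDPN+BP3- cells, against 4.72, 4.15 and 3.85 in PDPN- cells. Lymph node PDPN- cells stood alone at the top, with a gap of 2.75 between their mean and the next, and the 2 thymus groups lay close together.

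In lymph node Prkg2 was lower in podoplanin-positive cells, by -5.30 ± 0.18 in PDPN+BP3- and by -4.32 ± 0.18 in PDPN+BP3+ cells (limma adjusted p 2.09e-12 and 1.37e-11). In thymus it was the only gene of the 8 that exceeded its PDPN- level in PDPN+BP3- cells, by 0.63 ± 0.18 (limma adjusted p 0.0126). That call was lost without thymus PDPN+BP3- replicate 2 (0.54, limma adjusted p 0.0533) and without thymus PDPN- replicate 3 (0.43, limma adjusted p 0.0782). It was also lost in a fit on the thymus arrays alone (limma adjusted p 0.0636). The Prkg2 row left out had the same order of group means. They were 3.26, 2.59 and 7.28 in lymph node PDPN+BP3+, PDPN+BP3- and PDPN- cells, and 4.31 and 4.10 in thymus PDPN+BP3- and PDPN- cells. On that row the thymus arrays overlapped, at 4.14 to 4.46 in PDPN+BP3- and 3.93 to 4.41 in PDPN- cells. Those of the row kept did not overlap.

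**Figure D3:**
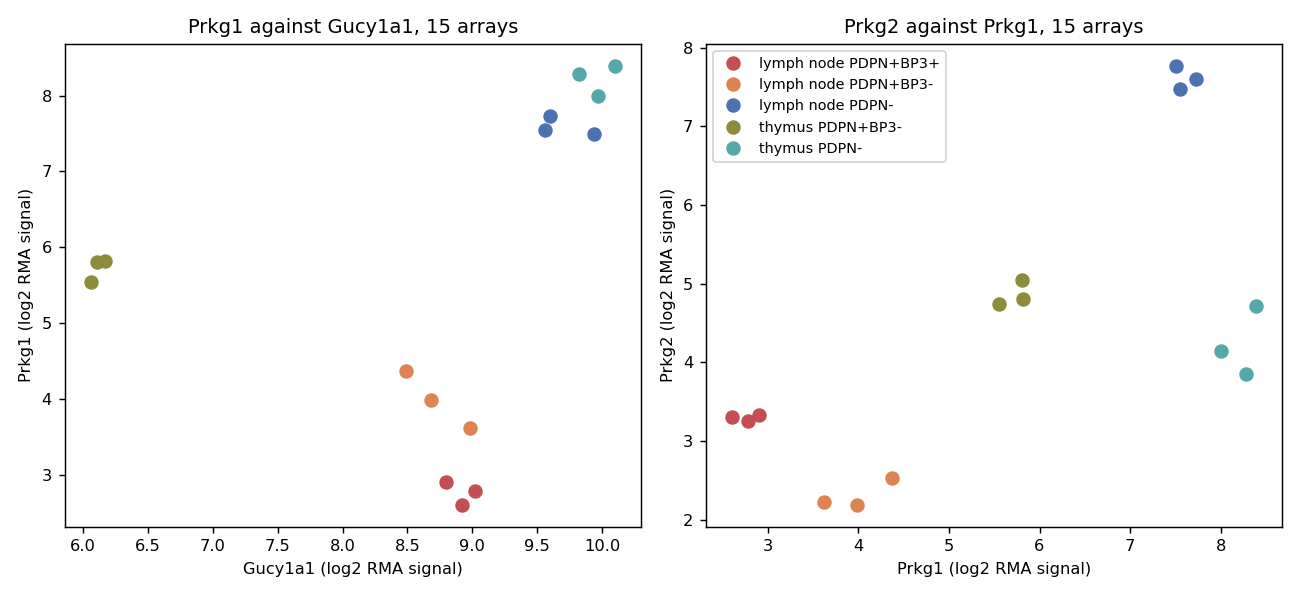
Left, Prkg1 against Gucy1a1, and right, Prkg2 against Prkg1, both in log2 RMA signal, with 1 point per array and colours for the 5 sorted groups. Lymph node podoplanin-positive arrays hold Gucy1a1 at 8.49 to 9.02 with Prkg1 at 2.61 to 4.37, whereas thymus PDPN+BP3- arrays hold Gucy1a1 at 6.06 to 6.17 with Prkg1 at 5.55 to 5.82. The PDPN- arrays of the organs lie together in Gucy1a1 and apart in Prkg2.

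The 3 phosphodiesterases followed the cyclase subunits in being highest in PDPN- cells. Pde5a encodes the cGMP-specific enzyme that sildenafil inhibits. In lymph node it stood at 5.18, 5.27 and 5.26 in PDPN+BP3+ cells and at 5.87, 5.86 and 5.73 in PDPN+BP3- cells, against 8.10, 7.68 and 8.03 in PDPN- cells. In thymus it stood at 4.64, 5.52 and 5.66 in PDPN+BP3- cells, against 8.38, 8.08 and 8.22 in PDPN- cells. The PDPN- groups overlapped at the top, and replicate 1 of thymus PDPN+BP3- was the lowest array of all.

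Pde3a encodes an enzyme that degrades cAMP and is held back by cyclic GMP, which links the cyclic nucleotides. It measured 8.26, 8.19 and 8.28 in lymph node PDPN+BP3+ cells and 8.33, 8.37 and 8.26 in PDPN+BP3- cells of lymph node, against 9.53, 9.50 and 9.48 in lymph node PDPN- cells. In thymus it measured 6.71, 7.09 and 7.08 in PDPN+BP3- cells, against 9.60, 9.45 and 9.45 in PDPN- cells. The 5 groups formed 3 levels: PDPN- cells of both organs, podoplanin-positive lymph node cells and thymus PDPN+BP3- cells.

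Pde1a encodes a phosphodiesterase that calcium and calmodulin activate. It measured 4.45, 4.66 and 4.71 in lymph node PDPN+BP3+ cells and 4.38, 4.40 and 4.29 in PDPN+BP3- cells of lymph node, against 6.31, 6.12 and 6.04 in lymph node PDPN- cells. In thymus it measured 3.83, 3.82 and 3.55 in PDPN+BP3- cells, against 6.79, 6.50 and 6.58 in PDPN- cells. The thymus PDPN+BP3- arrays were lowest and lay around the table median.

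In thymus the phosphodiesterases were lower in PDPN+BP3- cells by -2.95 ± 0.20 for Pde5a, -2.54 ± 0.11 for Pde3a and -2.89 ± 0.12 for Pde1a, and the largest limma adjusted p of the 3 was 5.95e-09. In lymph node PDPN+BP3- cells the differences from PDPN- cells were -2.12 ± 0.20, -1.18 ± 0.11 and -1.80 ± 0.12 in the same order of genes. In lymph node PDPN+BP3+ cells they were -2.70 ± 0.20, -1.26 ± 0.11 and -1.55 ± 0.12. The largest limma adjusted p of these 6 was 5.13e-07.

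Whether the step from PDPN- to PDPN+BP3- cells differs between the organs was tested as an interaction. A positive value means that PDPN+BP3- minus PDPN- is higher in lymph node than in thymus. Of the 8 genes, 5 had a positive interaction at an adjusted p under 0.05, against 8.67% of all genes, and 2 a negative one, against 4.05%. Without thymus PDPN+BP3- replicate 1, the array with the lowest median, 4 and 2 passed. After cyclic loess 4 and 2 passed too, and over all genes 862 were positive and 1215 negative, against 1623 and 758. The interaction was positive for 9 of the 13 pericyte and smooth muscle markers and negative for 1 (median 1.21, against 1.04 for the 8 genes), and negative for all 7 fibroblast markers (median -1.88). Their part in the interaction was not tested. It was 2.87 ± 0.19 for Gucy1a1 (limma adjusted p 6.53e-08), whose step was -0.98 in lymph node and -3.85 in thymus. It was 1.36 ± 0.15 for Pde3a, 1.14 ± 0.20 for Gucy1a2 and 1.09 ± 0.17 for Pde1a (limma adjusted p 1.82e-05, 0.00109 and 3.75e-04).

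Both kinases had a negative interaction. For Prkg1 the step down in PDPN+BP3- cells was larger in lymph node. For Prkg2 a large step down in lymph node stood against a small step up in thymus, which passed in 9 of its 12 alternatives. The interaction was -5.93 ± 0.25 for Prkg2 (limma adjusted p 5.28e-10), whose step was -5.30 in lymph node and 0.63 in thymus. It was -1.10 ± 0.24 for Prkg1 (limma adjusted p 0.00472), whose step was -3.60 in lymph node and -2.50 in thymus. Pde5a did not pass (0.84 ± 0.28, limma adjusted p 0.0663, 95% interval 0.24 to 1.44). It passed without thymus PDPN+BP3- replicate 2 (0.96) or 3 (1.03), after a filter on low values (limma adjusted p 0.0409) and with a trended and robust prior (limma adjusted p 0.0492).

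The fifth positive interaction, 0.99 ± 0.30 for Gucy1b1, passed narrowly (limma adjusted p 0.0435). The call was lost in 11 of its 18 alternatives. These were cyclic loess normalization (0.73), a fit on the 4 groups alone (limma adjusted p 0.0711) and the omission of any of 9 arrays. Without thymus PDPN+BP3- replicate 1 or 2 the value was 0.74 or 0.97, and without thymus PDPN- replicate 1, 2 or 3 it was 0.91, 1.0 or 1.05. Without lymph node PDPN+BP3- replicate 2 or 3 it was 0.99 or 0.80, and without lymph node PDPN- replicate 1 or 2 it was 0.92 or 0.96.

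Set directly against each other, PDPN+BP3- cells of lymph node had more signal of the soluble cyclase subunits and less of the kinases than those of thymus. Of the 8 genes, 5 were higher in lymph node, against 11.8% of all genes, and 2 lower, against 5.29%. Without thymus PDPN+BP3- replicate 1, and likewise after cyclic loess, 4 were higher and 2 lower. Over all genes 1381 were higher and 1150 lower without that array, and 1332 and 1584 after cyclic loess, against 2215 and 990. Gucy1a1 was higher in lymph node by 2.6 ± 0.14 and Pde3a by 1.36 ± 0.11 (limma adjusted p 1.49e-09 and 1.98e-07). Pde1a was higher by 0.62 ± 0.12 and Gucy1a2 by 0.58 ± 0.14 (limma adjusted p 0.00153 and 0.00922). After cyclic loess the value of Pde1a was 0.38 and did not pass (limma adjusted p 0.102).

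Gucy1b1 was higher in lymph node PDPN+BP3- cells by 0.81 ± 0.22 (limma adjusted p 0.0156), although its arrays overlapped. The call was lost without thymus PDPN+BP3- replicate 1 (0.56), without lymph node PDPN+BP3- replicate 3 (0.62) and in a fit on these 2 groups alone (limma adjusted p 0.101). Prkg2 was lower by -2.55 ± 0.18 and Prkg1 by -1.73 ± 0.17 (limma adjusted p 3.42e-08 and 1.37e-06). Pde5a stood at 0.55 ± 0.20 and did not pass (limma adjusted p 0.075, 95% interval 0.12 to 0.97). Its value was 0.23 without thymus PDPN+BP3- replicate 1, and it passed without replicate 2 (0.67) or 3 (0.74) of that group and after a filter on low values (limma adjusted p 0.0485). Endothelium markers (8 genes) averaged 4.04 to 4.54 on these lymph node arrays and 3.31 to 3.55 on the thymus arrays. T lineage markers (6 genes) averaged 2.84 to 3.07 on the lymph node arrays and 3.72 to 5.35 on the thymus arrays. Of the pericyte and smooth muscle markers 8 were higher and 2 lower in lymph node. Their part in the differences was not tested.

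Between PDPN- cells of the organs, most of the 8 genes differed little and Prkg2 differed most. Of the 8 genes, 1 was higher in lymph node, against 4.42% of all genes, and 3 were lower, against 5.19%. Prkg2 was higher in lymph node by 3.38 ± 0.18 (limma adjusted p 2.74e-09). Prkg1 was lower by -0.63 ± 0.17, Gucy1a2 by -0.56 ± 0.14 and Pde1a by -0.47 ± 0.12 (limma adjusted p 0.0227, 0.0175 and 0.0196). Each of these 3 small differences was lost when some single arrays were left out. That held for Prkg1 without thymus replicate 1 (-0.55) or 3 (-0.60) or lymph node replicate 1 (-0.58) or 2 (-0.61). It held for Gucy1a2 (-0.49, -0.47 and -0.51) and for Pde1a (-0.38, -0.45 and -0.41) without thymus replicate 1, lymph node replicate 2 or lymph node replicate 3. Pde1a was also lost after cyclic loess (-0.39), with a trended and robust prior (limma adjusted p 0.075) and in a fit on the PDPN- arrays alone (limma adjusted p 0.0533).

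Between PDPN- cells of lymph node and thymus, the other 4 genes did not pass. The 95% interval of the difference was -0.55 to 0.03 for Gucy1a1, -0.64 to 0.28 for Gucy1b1, -0.72 to 0.14 for Pde5a and -0.23 to 0.24 for Pde3a. Fibroblast markers were higher in lymph node PDPN- cells in 5 of 7 cases (median 1.94). T lineage markers averaged 2.89 to 3.00 on these lymph node arrays and 5.38 to 6.08 on the thymus arrays. Epithelium markers (7 genes) averaged 2.95 to 3.03 on the lymph node arrays and 4.51 to 4.94 on the thymus arrays. Their part in the differences was not tested.

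Among podoplanin-positive lymph node cells, 2 of the 8 genes rose in PDPN+BP3+ relative to PDPN+BP3- cells, against 8.49% of all genes, and 1 fell, against 7.74%. Prkg2 was higher by 0.98 ± 0.18 and Gucy1a2 by 0.63 ± 0.14 (limma adjusted p 6.30e-04 and 0.00427), though both Prkg2 means, 3.30 and 2.32, lay below the table median. Prkg1 was lower by -1.22 ± 0.17 (limma adjusted p 4.23e-05). Pde5a missed the threshold at -0.58 ± 0.20 (limma adjusted p 0.0606), although its arrays did not overlap. It passed after cyclic loess (-0.62, limma adjusted p 0.00447), in a fit on these 2 groups alone (limma adjusted p 0.00174), with a trended and robust prior (limma adjusted p 0.0434) and after a filter on low values (limma adjusted p 0.0362). For the remaining genes the 95% interval was -0.09 to 0.49 for Gucy1a1, -0.30 to 0.62 for Gucy1b1 and -0.31 to 0.16 for Pde3a, and Pde1a stood at 0.25 ± 0.12 (limma adjusted p 0.208). In the same comparison all 7 fibroblast markers were lower (median -2.45), 6 of the 8 endothelium markers were lower (median -0.94), and 6 of the 13 pericyte and smooth muscle markers were higher (median 0.45). Their part in the differences was not tested.

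Other genes that make or feed cyclic GMP had another distribution. The nitric oxide synthases Nos1, Nos2 and Nos3 had group means of 2.29 to 2.87, below the table median. Of 17 genes of the natriuretic peptide system and of other guanylate cyclases, 4 rose and 1 fell in thymus PDPN+BP3- relative to PDPN- cells, with a median of 0.04. Of all genes, 10.3% rose and 18.2% fell there. All of the 17 but Npr1, Npr2, Npr3, Furin, Mme and Guca1a had means below the table median in every group. Such signals need not stand above background, and they weigh on the median of the list. Npr2, the membrane guanylate cyclase that binds C-type natriuretic peptide, averaged 6.80 ± 0.26 in thymus PDPN+BP3- cells and 2.44 ± 0.06 in thymus PDPN- cells (SD, n = 3). In lymph node it averaged 5.93 ± 0.13 in PDPN+BP3+ and 6.02 ± 0.10 in PDPN+BP3- cells, against 3.15 ± 0.14 in PDPN- cells.

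The difference of Npr2 from PDPN- cells was 4.36 ± 0.13 in thymus PDPN+BP3-, 2.87 ± 0.13 in lymph node PDPN+BP3- and 2.78 ± 0.13 in lymph node PDPN+BP3+ cells. Its largest limma adjusted p of the 3 was 8.44e-11, and its sign was opposite to that of the soluble cyclase subunits. Npr1, the cyclase that binds atrial natriuretic peptide, exceeded its PDPN- level in PDPN+BP3- cells by 1.86 ± 0.19 in thymus and by 0.72 ± 0.19 in lymph node (limma adjusted p 7.90e-07 and 0.00876), and the lymph node call was lost without PDPN+BP3- replicate 1 (0.56, limma adjusted p 0.0567). Npr3, the clearance receptor, was lower in thymus PDPN+BP3- cells (-1.07 ± 0.21, limma adjusted p 0.00107) and in lymph node PDPN+BP3+ cells (-2.56 ± 0.21, limma adjusted p 1.01e-07). Mme, the peptidase neprilysin that degrades natriuretic peptides, was higher by 2.15 ± 0.12 in thymus PDPN+BP3-, 2.72 ± 0.12 in lymph node PDPN+BP3- and 5.73 ± 0.12 in lymph node PDPN+BP3+ cells. In lymph node 4 of the 17 genes were higher and 0 lower in PDPN+BP3- cells (median -0.01), against 13.4% and 9.79% of all genes. In PDPN+BP3+ cells of lymph node 3 were higher and 1 lower (median 0), against 16.1% and 11.2% of all genes.

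Of 8 genes of nitric oxide synthesis and its inhibitors, 2 were higher in thymus PDPN+BP3-, 2 in lymph node PDPN+BP3- and 3 in lymph node PDPN+BP3+ than in PDPN- cells, and 0 were lower. The medians were 0.21, 0.23 and 0.16. Of all genes, 10.3%, 13.4% and 16.1% were higher and 18.2%, 9.79% and 11.2% lower in the same comparisons. Ddah1, which degrades an endogenous inhibitor of nitric oxide synthase, averaged 8.33 ± 0.20 in lymph node PDPN+BP3+ and 5.48 ± 0.65 in PDPN+BP3- cells, against 4.89 ± 0.31 in PDPN- cells (SD, n = 3). Nos1ap, an adaptor of neuronal nitric oxide synthase, averaged 6.78 ± 0.26 and 4.51 ± 0.18 in PDPN+BP3+ and PDPN+BP3- cells, against 3.38 ± 0.10 in PDPN- cells. Both exceeded their PDPN- level in PDPN+BP3+ cells, by 3.44 ± 0.29 and 3.39 ± 0.16 (limma adjusted p 9.91e-08 and 6.00e-11).

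**Figure D4:**
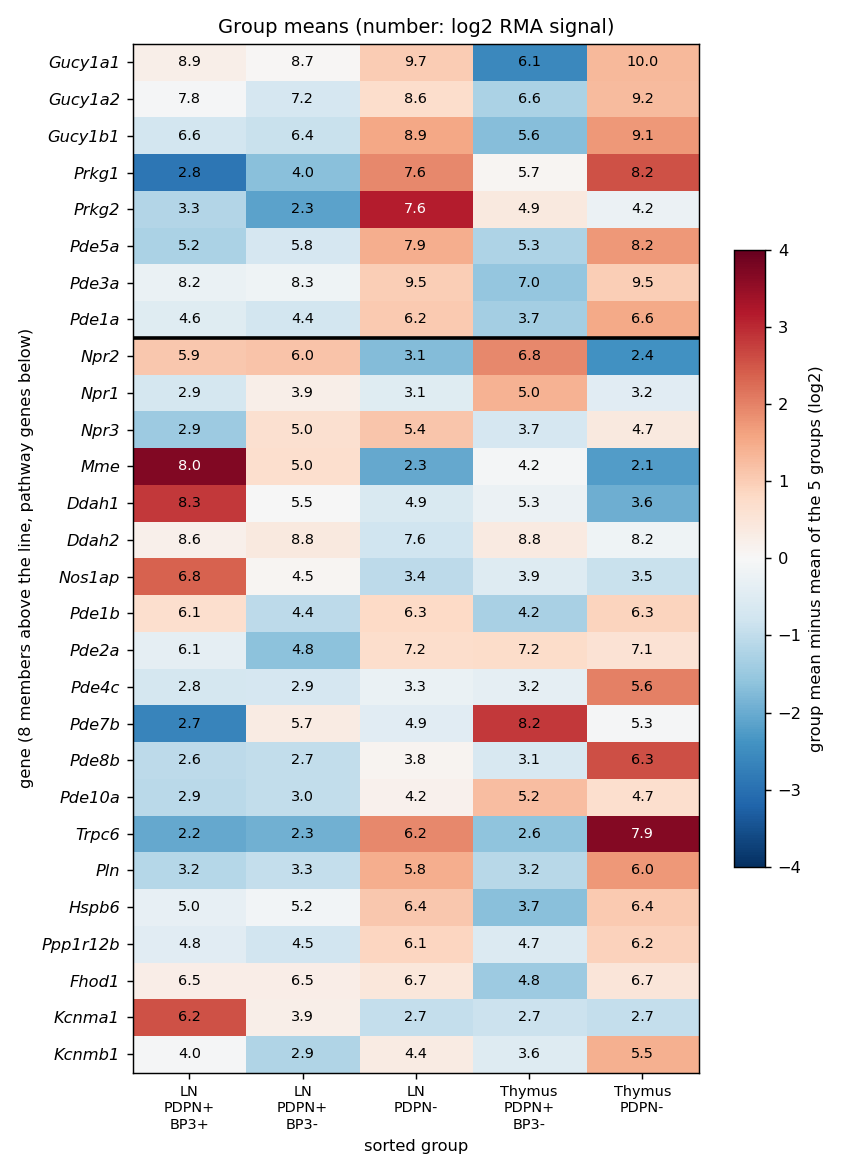
Mean log2 RMA signal of the 8 genes (above the line) and of other genes of cyclic nucleotide signalling (below it) in the 5 sorted groups, n = 3 arrays each. Numbers are group means and colours the difference from the mean of that gene over the 5 groups. Npr2 is higher in the podoplanin-positive groups, at 5.93 to 6.80, where Gucy1b1 is lower, and Mme, Ddah1, Nos1ap and Kcnma1 are highest in lymph node PDPN+BP3+ cells.

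The 21 other cyclic nucleotide phosphodiesterases were split. Among them Pde1c, Pde6a, Pde6b, Pde6c, Pde6g, Pde6h and Pde11a had means below the table median in every group. In thymus 5 of the 21 rose and 5 fell in PDPN+BP3- relative to PDPN- cells (median -0.02), against 10.3% and 18.2% of all genes. Pde7b, which degrades cAMP, was higher by 2.86 ± 0.13, and Pde8b (-3.20 ± 0.14), Pde4c (-2.37 ± 0.12) and the calmodulin-dependent Pde1b (-2.19 ± 0.12) were lower. In lymph node 1 was higher and 8 were lower in PDPN+BP3- cells (median -0.13), against 13.4% and 9.79% of all genes. In PDPN+BP3+ cells of lymph node 2 were higher and 6 lower (median -0.11), against 16.1% and 11.2% of all genes. Pde1b (-1.82 ± 0.12) and Pde2a, an enzyme that cyclic GMP activates (-2.36 ± 0.19), were among those lower in PDPN+BP3- cells. The limma adjusted p of these 6 values was at most 5.46e-08. Pde7b differed in direction within the lymph node, at 0.80 ± 0.13 in PDPN+BP3- and -2.18 ± 0.13 in PDPN+BP3+ cells relative to PDPN- cells (limma adjusted p 2.02e-04 and 1.69e-09).

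Of 17 targets and partners of the kinases, 13 were lower and 1 higher in thymus PDPN+BP3- than in PDPN- cells (median -1.46). Of all genes, 18.2% were lower and 10.3% higher. In lymph node 10 were lower and 2 higher in PDPN+BP3- cells (median -0.95), against 9.79% and 13.4% of all genes. In PDPN+BP3+ cells of lymph node 8 were lower and 1 higher (median -0.39), against 11.2% and 16.1% of all genes. Trpc6, a cation channel that the kinase inhibits, differed by -5.30 ± 0.14 in thymus PDPN+BP3-, -3.86 ± 0.14 in lymph node PDPN+BP3- and -3.98 ± 0.14 in lymph node PDPN+BP3+ cells. Phospholamban, Pln, a regulator of the calcium pump of the sarcoplasmic reticulum, differed by -2.84 ± 0.22, -2.41 ± 0.22 and -2.58 ± 0.22 in the same groups. The partner of Prkg1 at the calcium store, Mrvi1 (now Irag1), differed by -2.30 ± 0.20, -1.53 ± 0.20 and -1.31 ± 0.20. The largest limma adjusted p of these 9 was 8.01e-05.

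Kcnma1, the pore of the large-conductance calcium-activated potassium channel and a kinase target, went the other way in lymph node. It averaged 6.17 ± 0.17 in PDPN+BP3+ and 3.85 ± 0.05 in PDPN+BP3- cells, against 2.68 ± 0.19 in PDPN- cells (SD, n = 3). The differences from PDPN- cells were 3.49 ± 0.13 and 1.17 ± 0.13 (limma adjusted p 3.70e-12 and 2.33e-06). In thymus its means were 2.75 and 2.65 in PDPN+BP3- and PDPN- cells. Its beta subunit Kcnmb1 shared this pattern only in part, with lymph node means of 4.03 in PDPN+BP3+ and 2.89 in PDPN+BP3- cells, against 4.42 in PDPN- cells. Like Kcnma1 (2.32 ± 0.13, limma adjusted p 1.09e-09), Kcnmb1 was higher in PDPN+BP3+ than in PDPN+BP3- cells (1.14 ± 0.17, limma adjusted p 1.31e-04). It was lower in PDPN+BP3- than in PDPN- cells by -1.53 ± 0.17 in lymph node and by -1.94 ± 0.17 in thymus (limma adjusted p 3.82e-06 and 1.69e-07).

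Of 14 cAMP kinase subunits and adenylate cyclases, 6 were lower and 1 higher in thymus PDPN+BP3- than in PDPN- cells (median -0.38). Of all genes, 18.2% were lower and 10.3% higher. In lymph node 7 were lower and 1 higher in PDPN+BP3- cells (median -0.43), against 9.79% and 13.4% of all genes. In PDPN+BP3+ cells of lymph node 7 were lower and 0 higher (median -0.35), against 11.2% and 16.1% of all genes. The regulatory subunit Prkar2b (-2.97 ± 0.18) and the cyclase Adcy6 (-2.42 ± 0.11) led in thymus, with limma adjusted p-values of 1.73e-09 and 3.42e-11. Of 8 cGMP-gated channels and cyclic nucleotide exporters, 1 was lower and 0 were higher in each of the 3 comparisons. Of all genes, 18.2%, 9.79% and 11.2% were lower and 10.3%, 13.4% and 16.1% higher, so the lower count was near the share of all genes. All of the list but Abcc5 had means below the table median in every group. The lower gene was the exporter Abcc5 in thymus (-0.44 ± 0.14, limma adjusted p 0.0227), and Abcc4 in lymph node PDPN+BP3- (-0.38 ± 0.12, limma adjusted p 0.0256) and PDPN+BP3+ cells (-0.39 ± 0.12, limma adjusted p 0.0191). These calls were not stable. Abcc5 did not pass without thymus PDPN+BP3- replicate 1 (-0.28) or thymus PDPN- replicate 1 (-0.43) or 2 (-0.41), nor after cyclic loess (-0.18). Abcc4 in PDPN+BP3- cells did not pass without lymph node PDPN- replicate 1 (-0.32) or 3 (-0.35) or without lymph node PDPN+BP3- replicate 1 (-0.38), 2 (-0.40) or 3 (-0.38). In PDPN+BP3+ cells it did not pass without lymph node PDPN- replicate 1 (-0.33) or 3 (-0.36) or lymph node PDPN+BP3+ replicate 3 (-0.30).

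Between organs, PDPN+BP3- cells of lymph node had 6 kinase targets higher and 2 lower than those of thymus, among them Fhod1 (1.71 ± 0.15) and Hspb6 (1.56 ± 0.20), and 1 other phosphodiesterase higher and 8 lower. Of all genes, 11.8% were higher and 5.29% lower. Pde7b (-2.49 ± 0.13), Pde2a (-2.37 ± 0.19) and Pde10a (-2.21 ± 0.13) were lowest by adjusted p, at most 1.51e-07 in limma. The membrane cyclases Npr1 (-1.15 ± 0.19) and Npr2 (-0.78 ± 0.13) were lower in PDPN+BP3- cells of lymph node (limma adjusted p 3.28e-04 and 4.49e-04), unlike the soluble cyclase subunits. In PDPN- cells 2 targets were higher and 3 lower in lymph node, and 1 other phosphodiesterase was higher and 3 were lower. Of all genes, 4.42% were higher and 5.19% lower in that comparison. Trpc6 stood at -1.74 ± 0.14, Pde4c at -2.29 ± 0.12 and Pde8b at -2.45 ± 0.14, with limma adjusted p-values of at most 5.62e-07.

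The genes whose signal ran most like that of each of the 8 genes were taken by Pearson correlation over the 15 arrays. The arrays fall into 5 groups, so these values mostly reflect group means and carry no test. For Gucy1a1 they were Rasl11a (0.987), Lama5 (0.985) and Aoc3 (0.981), and for Gucy1a2 Rapgef2 (0.992), Tbc1d1 (0.987) and Dusp19 (0.982). For Gucy1b1 they were Ajuba (0.986), Bcar3 (0.982) and the G protein regulator Rgs4 (0.981). For Prkg1 they were Adap2 (0.989), Ndufa4l2 (0.987) and Stk39 (0.987). For Pde5a they included Fry (0.988) and Limd1 (0.986). They were for Pde3a Afap1l2 (0.991), Hbegf (0.988) and Rasl12 (0.986), and for Pde1a Bcam (0.987), Plcl1 (0.985) and Ptp4a3 (0.985). For Prkg2 the values were lower, at 0.949 for Adamts14, 0.925 for Mbnl3 and 0.904 for Rnf152. Adamts14 averaged 3.94, 3.57 and 5.64 in lymph node PDPN+BP3+, PDPN+BP3- and PDPN- cells, and 4.92 and 4.01 in thymus PDPN+BP3- and PDPN- cells.

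Pericyte and smooth muscle markers moved with the 8 genes in the comparisons with PDPN- cells. All 13 were lower in thymus PDPN+BP3- cells (median -3.46), against 18.2% of all genes. In lymph node 12 were lower in PDPN+BP3- cells (median -2.70), against 9.79% of all genes. In PDPN+BP3+ cells of lymph node 12 of these markers were lower and 1 higher (median -1.82), against 11.2% and 16.1% of all genes. Their part in the differences of the 8 genes was not tested. Platelets also express soluble guanylate cyclase, Prkg1, Pde5a and Pde3a. Platelet markers (4 genes) averaged 3.32 to 3.47 in lymph node PDPN+BP3+, 3.15 to 3.23 in lymph node PDPN+BP3- and 2.73 to 3.17 in lymph node PDPN- arrays, and 3.11 to 3.38 and 2.73 to 2.86 in thymus PDPN+BP3- and PDPN- arrays. In PDPN- cells, where the 8 genes were mostly highest, 3 of the 4 lay below the table median in lymph node and all 4 in thymus. The same 3, Itga2b, Gp9 and Ppbp, lay below it in the podoplanin-positive groups too, so only Pf4 set the groups apart. The part of platelets in the differences was not tested. The platelet marker Pf4 averaged 6.03 in lymph node PDPN+BP3+ and 4.69 in PDPN+BP3- cells, against 3.99 in PDPN- cells. In thymus it averaged 5.78 in PDPN+BP3- cells, against 3.79 in PDPN- cells. Myeloid markers (6 genes) averaged 2.56 to 3.64 over all arrays and the erythroid gene Alas2 2.74 to 3.69.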

How the data were processed

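RNA of 5 sorted groups was amplified and measured on Affymetrix Mouse Gene 1.1 ST arrays, per the labels' protocols. The deposited values are log2 RMA signals, made by the authors in the Affymetrix Expression Console, per the submitters' processing notes. Versions: not given in the sources used here, and base 2 was inferred from the range (1.07 to 12.07). No depth applies, and the number of arrays limits precision. Of 24758 rows, 20844 had 1 symbol in the array annotation, 1735 several and 2179 none. The row with the highest mean was kept for each of 18718 genes, without a filter on low values.

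A limma 3.58.1 model in R 4.3.3 with 1 mean per group was fitted over all 15 arrays (residual degrees of freedom 10, prior 5.50), with Benjamini-Hochberg adjustment over all genes of a comparison and a threshold of 0.05. The fit was tested on simulated data. Replicate numbers were not used as a block. Alternatives were cyclic loess, a trended and robust prior, the compared arrays alone, a filter on low values, averaged rows, the replicate block and leaving out each array.

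The genes and lists were chosen with earlier results of these data known. The 8 genes were named in every comparison, and of each pathway list up to 4 genes with the smallest adjusted p per comparison. One gene among those most like Pde5a is not reported here. The nitric oxide synthases and Mrvi1 were named after their values were seen. Lists covered nitric oxide synthesis, natriuretic peptides and other cyclases, other phosphodiesterases, kinase targets, channels and export, the cAMP arm, and markers of pericytes and smooth muscle, fibroblasts, endothelium, platelets, T lineage, B cells, myeloid cells, epithelium and red blood cells.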

Additional observations from a re-analysis of the deposited data

Results flagged for a closer look

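For 7 of the 8 genes, the step from PDPN- to PDPN+BP3- cells was of another size or sign in lymph node than in thymus. Podoplanin and Ly51 cannot be told apart in that step. The interaction term of limma, from 3 arrays in each group, passed the threshold for these 7 genes in the main fit. It was positive in 5 and negative in 2, against 8.67% and 4.05% of all genes. The values, lymph node minus thymus on the log2 scale, were 2.87 for Gucy1a1, 1.14 for Gucy1a2, 0.99 for Gucy1b1, -1.10 for Prkg1, -5.93 for Prkg2, 1.36 for Pde3a and 1.09 for Pde1a. For Prkg2 the difference changed sign between the organs, at -5.30 in lymph node and 0.63 in thymus. The thymus value ran from 0.42 to 0.87 over its 12 alternatives and passed in 9 of them. The Gucy1b1 value passed in 7 of its 18 alternatives.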

How the results depend on the processing

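Over 720 repeats of the member differences under the alternatives, 674 kept both their sign and their side of the threshold, 31 fell below it, 11 passed it and 4 changed sign. The sign changes were in differences near 0 that had not passed, when single arrays were left out: Pde3a in PDPN- cells, lymph node minus thymus (-0.022 to 0.053, against 0.003), and Gucy1b1 in lymph node PDPN+BP3+ minus PDPN+BP3- cells (-0.023 to 0.347, against 0.16). The cause was not tested. The number of the 8 genes past the threshold moved by over 1.5 times in the comparison of PDPN- cells between organs, from 1 to 4 of 8 when single arrays were left out (1 without thymus replicate 1 or lymph node replicate 2, 2 without lymph node replicate 3). The other counts of the 8 genes, and the counts of all genes called in both directions together, stayed within 1.5 times. Of 540 repeats of the pathway list counts 67 moved by more, and of 1620 repeats of the named pathway genes 113 fell below the threshold. After cyclic loess the split of all genes in thymus was 2698 higher and 2211 lower, against 1922 and 3415 (2120 and 2343 without thymus PDPN+BP3- replicate 1). In lymph node PDPN+BP3- minus thymus PDPN+BP3- it was 1332 and 1584, against 2215 and 990 (1430 higher in a fit on these groups alone), and for the interaction 862 and 1215, against 1623 and 758. With the replicate block all 8 genes were lower in both lymph node comparisons with PDPN- cells, as without it, and 8, 3, 7, 4 and 7 of the 8 passed in the other 5. The block changed no call of the 8 genes. Same-numbered arrays of different groups correlated at -0.17 to 0.29 in their deviations (mean 0.01), so the numbers were not taken as pairs, and 8 of 15 arrays correlated best with their own number. Signals below the table median, as for Prkg2 in podoplanin-positive and Prkg1 in PDPN+BP3+ lymph node cells, need not stand above background.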
